A study of Mus musculus with 3 samples.

Results

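The genes described here are 35 mouse genes for lysosomal enzymes, lysosomal membrane proteins and storage disease proteins, out of 18130 protein-coding genes with a value. They were listed by name and not by a cut on their levels, but with earlier results of these data known. All 35 were found in the data. RNA was sequenced from cortical neurons of wild-type mice (genotype WT, treatment CON, for control) in 3 libraries that form 1 group, replicates 1 to 3. The title of the study concerns DNA supercoiling and the use of topoisomerases in the neuronal genome. With 1 group there is no contrast between conditions, so genes and gene groups were compared inside each library. The labels do not give the animals' age or say whether the libraries came from separate cultures. The spread between these libraries may therefore be technical. The p-values show only whether a difference kept 1 sign in the 3 libraries.

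Lysosomes are acidic compartments in which hydrolases take apart proteins, lipids, glycogen and glycosaminoglycans delivered by endocytosis and autophagy. Most of the soluble enzymes are tagged with mannose 6-phosphate in the Golgi apparatus and carried to the lysosome by receptors. Loss of a single enzyme, activator or transporter in people lets its substrate accumulate, and many of these storage diseases damage neurons, which live long and do not dilute stored material by division. The transcription factor TFEB and its relatives bind a short palindrome, CACGTG within a longer element, in the promoters of many lysosomal genes.

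The genes were listed by name and not by that palindrome, but it is already known from the promoters of many lysosomal genes. A higher share in this list is therefore not an independent finding. RefSeq promoter windows of 300 bases, 250 before to 50 after each annotated start on GRCm38.p6, were matched by symbol for 31 of the 35 genes. Asah1, Cln8, Ctsb and Npc1 had no matched window. CACGTG reads the same on both strands, and it was present in 12 of the 31 genes (38.7%), against 10.3% of 13918 coding genes with a window and 12.3% of those with a mean of at least 1 TPM. TPM, transcripts per 1000000, is a relative abundance scaled for transcript length. Counted per window, so that genes with several starts have no advantage, the shares were 33.3% of 36 lysosomal gene windows and 8.81% of 17450 coding gene windows. The median GC content of the lysosomal gene windows, 56.7%, was close to the 58.7% of all coding genes.

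More than 1 copy of the palindrome was present in 5 of the 31 genes, against 1.04% of coding genes. Those 5 windows are printed here because they hold most of the 19 copies, with the copies in capitals and positions counted from the annotated start, the start base being 1 and the base before it -1. The Lamp1 window (chr8:13158911-13159210, forward strand) has 4, beginning at -61, -45, -28 and -15, close together just before the start. Mcoln1 (chr8:3500269-3500568, forward strand) has copies at -71 and -45, Ctsd (chr7:142387778-142388077, reverse strand) at -245 and -98, and Cln3 (chr7:126583187-126583486, reverse strand) at -149 and -121. Ctsa (chr2:164833523-164833822, forward strand) has 1 on either side of its start, at -12 and 6. The Cln3 and Ctsa windows belong to the more downstream of 2 annotated starts, and the windows of their other starts have no copy.
Lamp1: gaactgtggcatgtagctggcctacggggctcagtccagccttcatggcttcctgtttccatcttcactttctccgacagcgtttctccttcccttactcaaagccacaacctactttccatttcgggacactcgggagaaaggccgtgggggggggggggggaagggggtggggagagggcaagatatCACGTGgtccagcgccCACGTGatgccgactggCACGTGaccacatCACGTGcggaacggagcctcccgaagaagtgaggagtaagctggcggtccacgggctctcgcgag
Mcoln1: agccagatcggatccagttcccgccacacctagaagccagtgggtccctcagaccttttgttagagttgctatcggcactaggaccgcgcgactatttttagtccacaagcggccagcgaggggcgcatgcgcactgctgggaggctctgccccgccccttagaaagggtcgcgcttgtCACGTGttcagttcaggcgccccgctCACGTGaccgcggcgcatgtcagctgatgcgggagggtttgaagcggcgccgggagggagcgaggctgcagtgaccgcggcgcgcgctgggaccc
Ctsd: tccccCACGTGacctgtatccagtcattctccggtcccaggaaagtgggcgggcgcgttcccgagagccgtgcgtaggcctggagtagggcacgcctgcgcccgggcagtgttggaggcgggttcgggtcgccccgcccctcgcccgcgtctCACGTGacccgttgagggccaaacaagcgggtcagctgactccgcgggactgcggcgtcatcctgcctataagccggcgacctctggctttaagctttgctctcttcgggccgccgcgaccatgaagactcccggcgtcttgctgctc
Cln3: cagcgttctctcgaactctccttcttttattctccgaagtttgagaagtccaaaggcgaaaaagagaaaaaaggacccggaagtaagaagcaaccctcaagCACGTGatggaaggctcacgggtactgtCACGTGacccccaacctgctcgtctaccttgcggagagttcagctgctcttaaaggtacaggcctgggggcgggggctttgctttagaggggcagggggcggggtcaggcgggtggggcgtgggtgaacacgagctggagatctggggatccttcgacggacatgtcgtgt
Ctsa: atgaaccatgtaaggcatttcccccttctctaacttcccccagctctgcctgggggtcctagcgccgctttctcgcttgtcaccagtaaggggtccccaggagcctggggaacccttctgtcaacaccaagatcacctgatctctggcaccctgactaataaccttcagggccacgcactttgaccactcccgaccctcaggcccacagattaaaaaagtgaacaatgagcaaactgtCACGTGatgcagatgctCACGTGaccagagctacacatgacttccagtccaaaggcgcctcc

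The other 7 genes have 1 copy each, and 30 bases around it are shown for comparison with the capitals above. The copies begin at -48 in Glb1 (chr9:114401018-114401047, forward strand), -16 in Arsa (chr15:89477423-89477452, reverse strand), -140 in Gaa (chr11:119267811-119267840, forward strand), -79 in Ctsf (chr19:4855074-4855103, forward strand), -236 in Ctsl (chr13:64370739-64370768, reverse strand), -73 in Naglu (chr11:101070009-101070038, forward strand) and -29 in Sgsh (chr11:119355522-119355551, reverse strand).
Glb1: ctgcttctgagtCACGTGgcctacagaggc
Arsa: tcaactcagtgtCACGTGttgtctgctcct
Gaa: tttctgtgcgatCACGTGtttgactctgac
Ctsf: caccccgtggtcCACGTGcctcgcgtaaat
Ctsl: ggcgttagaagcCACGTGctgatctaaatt
Naglu: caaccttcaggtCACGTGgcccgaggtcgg
Sgsh: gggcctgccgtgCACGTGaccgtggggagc

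The longer forms of the motif overlap the palindrome and were searched on both strands. TCACGTG was present in 10 of the 31 genes (32.3%), against 5.85% of coding genes, and Ctsf and Ctsl are the genes that have the palindrome without it. TCACGTGA was present in 4 genes (12.9%), namely Cln3, Ctsa, Ctsd and Mcoln1, against 1.67% of coding genes. TCATGTGA, a form with 1 changed base that does not overlap CACGTG, was present in Grn, Ppt1 and Tpp1 (9.68%), against 0.963% of coding genes. A match is a run of letters and not a measured binding site.

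Lysosomal genes were expressed in these libraries in nearly every case, and over a wide range. A mean of at least 1 TPM was reached by 33 of 35 genes, against 61.8% of all coding genes, and the exceptions were Idua and Tfeb. Rescaled so that coding genes fill the scale, all 35 reached it. That rescaling acts on every coding gene alike, and the share of all coding genes reaching 1 TPM on that scale was not counted. A mean of at least 10 TPM was reached by 18 genes, against 26.9% of coding genes, and 4 genes (Psap, Lamp1, Ids and Ctsd) reached 100 TPM, against 1.65%. The lysosomal median was 10.001, 10.75 and 10.79 TPM in replicates 1, 2 and 3, and the median of all coding genes was 2.89, 2.90 and 2.91 TPM. On the log2(TPM + 0.1) scale the lysosomal median lay above the coding median by 1.82 ± 0.06 (SD, n = 3), a 3.54-fold difference. Among genes of at least 1 TPM the difference was 0.44.

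**Figure D1:**
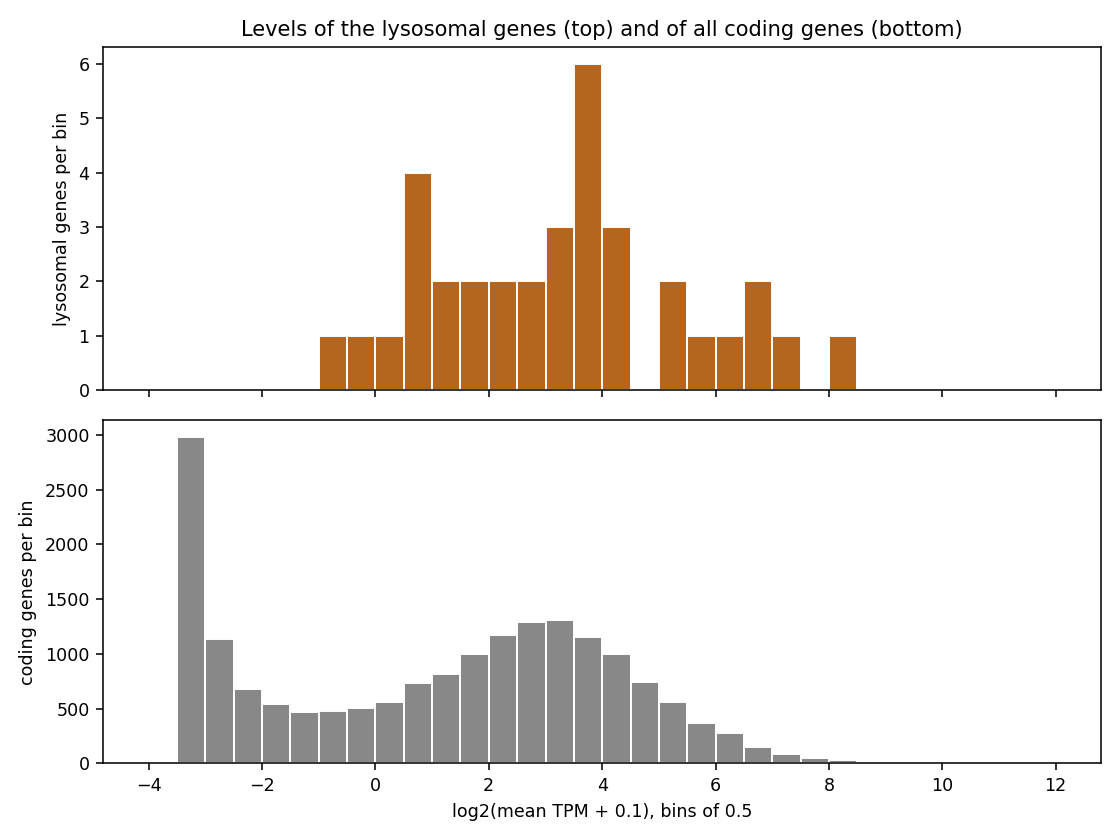
Number of genes per bin of log2(mean TPM + 0.1), bin width 0.5, for the 35 lysosomal genes (top) and 18130 coding genes (bottom), with mean TPM over 3 libraries. The lysosomal genes have a median of 10.7 TPM against 2.91 TPM for all coding genes, and none of them lies in the left-hand peak of silent genes.

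The values of a library add up over all listed transcripts, and the 35 genes together held 1062, 1065 and 1018 TPM in replicates 1, 2 and 3. The 4 highest genes carried 62.5 ± 1.48% of that sum (SD, n = 3), and Psap alone carried 28.1 ± 1.20%. The highest and lowest means, of Psap and Tfeb, were 488-fold apart. Ordered by mean TPM, 18 of the 34 neighbouring pairs of genes had ranges over the 3 libraries that did not overlap. The ranges overlapped in 16 pairs. These were Ids with Ctsd, Ctsb with Ppt1, Glb1 with Galc, Idua with Tfeb, each step of the run Gaa, Ctsf, Ctsa, Grn, Hexa and Tpp1, both steps of the run Cln8, Mfsd8 and Man2b1, and each step of the run Cln6, Ctsz, Naglu, Cln3, Gusb and Sgsh. Of these 16, 5 kept 1 order inside all 3 libraries: Ctsa above Grn, Cln8 above Mfsd8, Mfsd8 above Man2b1, Cln6 above Ctsz and Cln3 above Gusb. The others changed order between libraries.

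**Figure D2:**
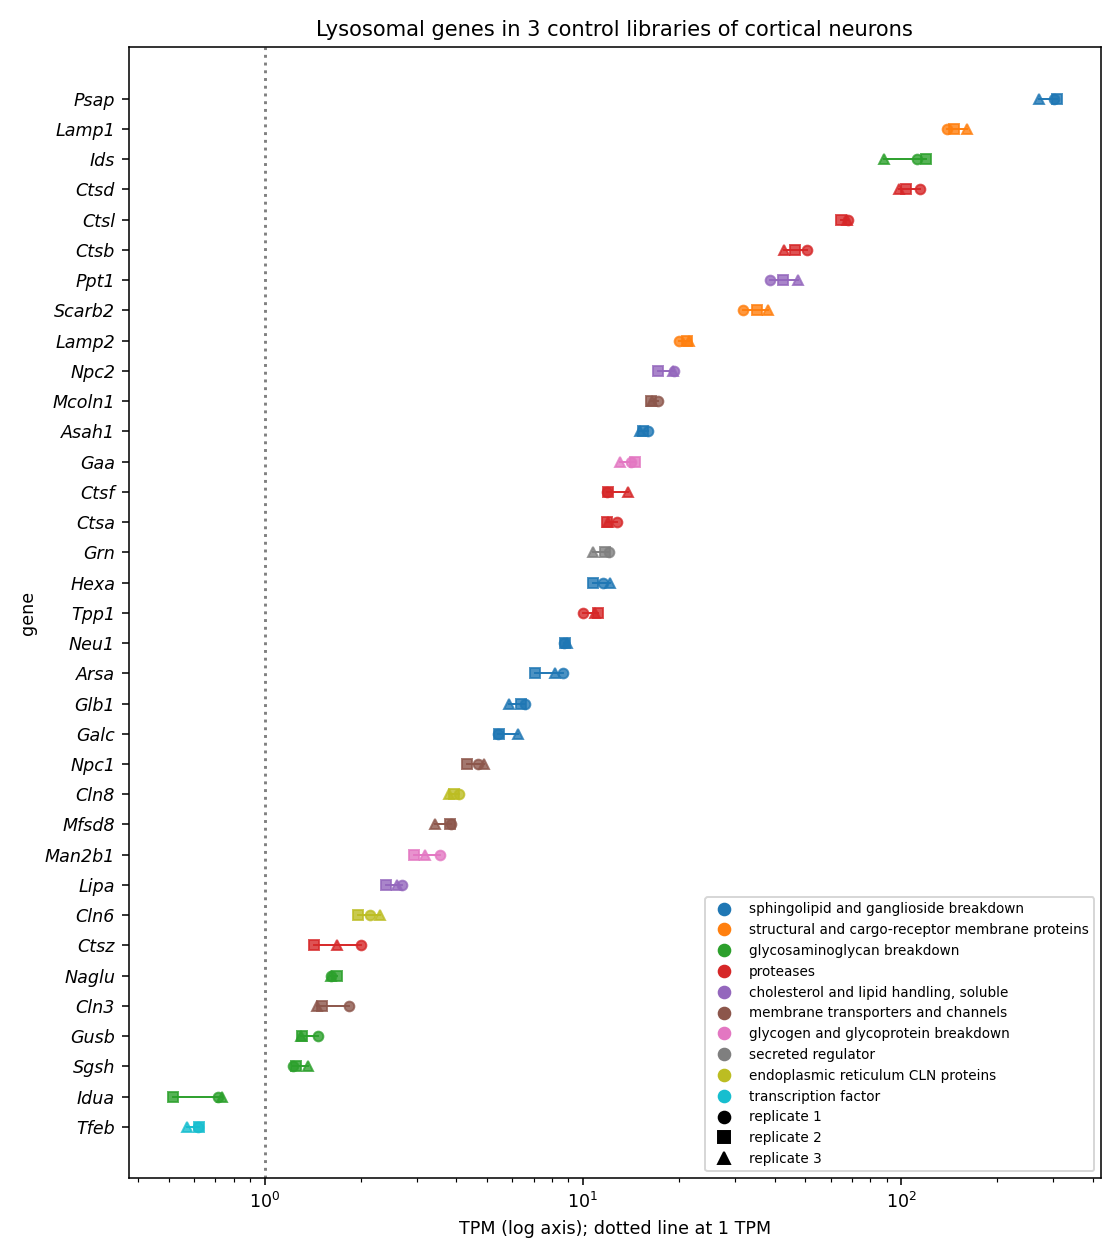
Level of each of the 35 lysosomal genes in TPM (log axis), highest mean at the top, with 1 symbol per library, a line over the range and colours for the role of the protein. Psap lies near 295 TPM, 4 genes reach 100 TPM, and Idua and Tfeb lie left of the dotted line at 1 TPM in every library.

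Structural and cargo proteins of the lysosomal membrane were the highest group of the roles with more than 1 gene, with a median of 35.1 ± 3.19 TPM over 3 genes. Lamp1, which encodes the abundant glycoprotein that lines the membrane, had 139, 147 and 161 TPM in replicates 1, 2 and 3. It is annotated at 13159161 to 13175338 on the forward strand of chromosome 8 (GRCm38). Its relative Lamp2, needed for fusion of autophagosomes and for chaperone-mediated autophagy, had 20.1, 21.3 and 21.5 TPM. The ranges of these 2 genes did not overlap, and Lamp1 exceeded Lamp2 by 2.82 ± 0.06 on the log2 scale, a 7.10 ± 0.32-fold difference (two-sided exact sign-flip permutation test p = 0.25, n = 3). With 3 libraries 0.25 is the smallest p this test can give. With values summed over transcripts, which counts shared reads repeatedly, the log2 difference was 0.87. Scarb2, the receptor that carries beta-glucocerebrosidase to lysosomes, had 31.8, 35.2 and 38.2 TPM. With the transcripts used, all 3 genes of this group were highest in replicate 3 and lowest in replicate 1. Of coding genes that reached 1 TPM on average, 31.4% were highest in replicate 3 and 33.6% lowest in replicate 1. For Lamp2 this order rested on the transcript, since its other coding transcripts were highest in replicate 1. ENSMUST00000016678.9 had 26.4, 25.7 and 25.8 TPM in replicates 1, 2 and 3, and ENSMUST00000074913.7 had 23.5, 23.1 and 22.95 TPM.

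Lamp2 has coding transcripts that share their first exons and end in different last exons, which in people and mice give proteins with different tails. The transcript used here, ENSMUST00000061755.8, has 3604 bases, of which 2345 lie outside the 1259 bases common to the 3 coding transcripts. It had 3707, 3318 and 3542 reads in replicates 1, 2 and 3, or 1309, 1354 and 1459 more than ENSMUST00000016678.9. ENSMUST00000074913.7 had 234, 218 and 207 more reads than ENSMUST00000016678.9. Reads of the common part were counted for each transcript, so the surplus bears on private bases of different length and is not an isoform share.

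Transporters and channels of the lysosomal membrane were lower, with a median of 4.16 ± 0.09 TPM over 4 genes. That was 1.33 log2 units below the median of the 35 genes, and 0.085 above it with values summed over transcripts. Mcoln1, the calcium-permeable channel TRPML1 of mucolipidosis type IV, had 17.2, 16.4 and 16.5 TPM and was the highest of them. Npc1, which moves cholesterol through the lysosomal membrane, averaged 4.62 ± 0.28 TPM (SD, n = 3). Mfsd8, the CLN7 protein gene, averaged 3.70 ± 0.24 TPM, and Cln3, mutated in juvenile Batten disease, averaged 1.60 ± 0.20 TPM. Cln3 was higher in replicate 1, at 1.83 TPM, than in replicates 2 and 3, at 1.51 and 1.46 TPM. It lay below Mfsd8 in every library, by a log2 difference of -1.16 ± 0.13 (p = 0.25, exact sign-flip permutation, n = 3). Cln3 has 19 listed transcripts, averaged 2.81 TPM with the most abundant coding transcript, and with values summed over transcripts lay above Mfsd8 by 3.44.

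Proteases spanned a wide range, with a median of 12.9 ± 0.93 TPM over 7 genes. Ctsd, the main aspartic protease of lysosomes and the gene of a congenital ceroid lipofuscinosis, had 114, 103 and 98.6 TPM. Its transcript shares 41.1% of its bases with the overlapping gene model Gm49369 on the same strand, so reads of that shared stretch cannot be told apart. With lengths taken to the deposited transcript ends another transcript was chosen and Ctsd averaged 93.5 ± 7.14 TPM. Among cysteine cathepsins, Ctsl had 68.0, 64.8 and 67.4 TPM and Ctsb had 50.5, 46.5 and 42.7 TPM. Ctsb lay below Ctsl in every library with no overlap, by a log2 difference of -0.52 ± 0.12, and Ctsd exceeded Ctsb by 1.18 ± 0.03 (p = 0.25 for both, exact sign-flip permutation, n = 3).

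The remaining proteases formed a middle group and 1 low gene. Ctsf, a cysteine cathepsin gene of adult-onset ceroid lipofuscinosis, averaged 12.6 ± 1.11 TPM. Ctsa, a carboxypeptidase that also protects its partner glycosidases, averaged 12.2 ± 0.48 TPM, or 25.3 TPM with the most abundant coding transcript. Tpp1, the tripeptidyl peptidase of late infantile ceroid lipofuscinosis, averaged 10.7 ± 0.60 TPM. Their ranges overlapped where they were neighbours in the order. Ctsz, a cathepsin with carboxypeptidase activity that in mouse brain is best known from microglia, had 2.004, 1.43 and 1.69 TPM.

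Genes of sphingolipid and ganglioside breakdown had a median of 8.79 ± 0.11 TPM over 7 genes, below that of the 35 genes (above it with values summed over transcripts), and included the highest gene of all. Psap encodes the precursor of the saposins, the small activators that present sphingolipids to their hydrolases. It had 303, 309 and 272 TPM, higher than 99.7% of coding genes by its mean, and is annotated at 60277627 to 60302597 on the forward strand of chromosome 10. Its 5 coding transcripts had between 32986 and 33004 reads each in replicate 3, so they were not separate measurements, and their sum, 1484 TPM, would count the same reads repeatedly. Asah1, acid ceramidase, averaged 15.6 ± 0.44 TPM.

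Other enzymes of the group followed well below Psap. Among them Neu1, whose level is the group median, counts under glycoproteinosis in the disease grouping below. Hexa, the alpha subunit of beta-hexosaminidase and the Tay-Sachs gene, had 11.5, 10.8 and 12.2 TPM. It was highest in replicate 3 and lowest in replicate 2, and its range overlapped those of Grn and Tpp1, its neighbours in the order. Beta-galactosidase (Glb1), sialidase (Neu1) and the protective protein (Ctsa) form a complex in lysosomes. Glb1 averaged 6.27 ± 0.36 TPM and Neu1 averaged 8.79 ± 0.11 TPM. Both lay below Ctsa in every library, Glb1 by a log2 difference of -0.95 ± 0.06 and Neu1 by -0.47 ± 0.07 (p = 0.25 for both, exact sign-flip permutation, n = 3). With the most abundant coding transcript these differences were -1.99 and -1.51, and with values summed over transcripts -5.33 and -3.42. Glb1 shares 6.89% of its transcript with Tmppe on the same strand.

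Galc and Arsa act on the myelin lipids galactosylceramide and sulfatide, and their loss causes leukodystrophies in people. Galc, galactosylceramidase of Krabbe disease, had 5.41, 5.46 and 6.27 TPM. Arsa, arylsulfatase A of metachromatic leukodystrophy, had 8.65, 7.07 and 8.19 TPM. Galc lay below Arsa in each library and the ranges did not overlap, with a log2 difference of -0.47 ± 0.17 (p = 0.25, exact sign-flip permutation, n = 3). With the most abundant coding transcript in place of the one with the most reads, Arsa averaged 13.2 TPM. The 12 markers of the oligodendrocyte lineage, which forms myelin, summed to 56.3 to 90.8 TPM over the libraries, and their part in these 2 levels was not tested.

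Soluble proteins of cholesterol and lipid handling, counting Ppt1, which acts on lipid-modified proteins, had a median of 18.6 ± 1.19 TPM over 3 genes. That was above the median of the 35 genes (below it with values summed over transcripts). Ppt1, the palmitoyl-protein thioesterase of infantile ceroid lipofuscinosis, had 38.8, 42.6 and 47.3 TPM, highest in replicate 3. A shorter coding transcript of Ppt1, ENSMUST00000121870.3, had 18.5, 15.7 and 15.2 TPM and was highest in replicate 1. Tpp1, the enzyme of the neighbouring disease type, lay below Ppt1 by a log2 difference of -1.99 ± 0.10, so Ppt1 was 4.02 ± 0.28-fold higher (p = 0.25, exact sign-flip permutation, n = 3). Npc2, which hands cholesterol to NPC1, had 19.4, 17.2 and 19.2 TPM. Npc1 lay below Npc2 by a log2 difference of -1.98 ± 0.04, with Npc2 4.02 ± 0.11-fold higher and no overlap between the ranges (p = 0.25, exact sign-flip permutation, n = 3). Lipa, acid lipase of Wolman disease, was the lowest of the group at 2.57 ± 0.14 TPM.

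Glycosaminoglycan breakdown was the group with the widest gap, since 1 of its 5 genes was among the highest and the other 4 were among the 6 lowest of all 35. Ids, the X-linked iduronate sulfatase of Hunter syndrome, had 112, 119 and 88.3 TPM. It is annotated at 70343069 to 70365084 on the reverse strand of the X chromosome. Idua, the iduronidase that acts next on the same heparan and dermatan sulfate chains, had 0.711, 0.514 and 0.733 TPM from 123, 75 and 113 reads. Ids exceeded Idua by 7.15 ± 0.44 on the log2 scale, a ratio of 170 ± 56.9 in TPM (p = 0.25, exact sign-flip permutation, n = 3). Idua was lowest in replicate 2, the library where Ids was highest.

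Other enzymes of heparan sulfate and glycosaminoglycan breakdown were low. Naglu, alpha-N-acetylglucosaminidase, averaged 1.64 ± 0.04 TPM, beta-glucuronidase (Gusb) 1.36 ± 0.10 TPM and the sulfamidase Sgsh 1.28 ± 0.08 TPM. Sgsh lay below Naglu by a log2 difference of -0.33 ± 0.10 (p = 0.25, exact sign-flip permutation, n = 3), and above it by 0.58 with values summed over transcripts. The group median of 1.38 ± 0.08 TPM was 2.84 ± 0.13 log2 units below the median of the 35 genes. It was the lowest median of the roles with more than 1 gene.

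Enzymes of glycogen and glycoprotein breakdown were Gaa and Man2b1. Gaa, acid alpha-glucosidase of Pompe disease, averaged 13.9 ± 0.76 TPM. Man2b1, the alpha-mannosidase, averaged 3.23 ± 0.30 TPM, and the ranges of these 2 genes did not overlap. Cln6 and Cln8 encode membrane proteins of the endoplasmic reticulum that form a complex and help move newly made lysosomal enzymes to the Golgi apparatus. Cln6 averaged 2.14 ± 0.17 TPM and Cln8 averaged 3.94 ± 0.15 TPM (5.93 TPM with the most abundant coding transcript), with Cln6 lower by a log2 difference of -0.85 ± 0.14 (p = 0.25, exact sign-flip permutation, n = 3).

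Grn encodes progranulin, a secreted protein that binds prosaposin and is cut into granulins in the lysosome. It had 12.05, 11.7 and 10.8 TPM, and Psap exceeded it by 4.66 ± 0.04 on the log2 scale, a 25.6 ± 0.70-fold difference (p = 0.25, exact sign-flip permutation, n = 3). Tfeb was the lowest of the 35 genes, with 0.616, 0.622 and 0.570 TPM from 74, 63 and 61 reads. With the most abundant coding transcript Idua was lowest, and with summed values Ctsz. Its relative Tfe3 had 7.40, 7.89 and 8.01 TPM, and Tfeb lay below Tfe3 by a log2 difference of -3.48 ± 0.11 (p = 0.25, exact sign-flip permutation, n = 3). Mitf averaged 0.45 ± 0.10 TPM, and Tfec was listed at 0 in replicates 1 and 3 and at 0.026 TPM in replicate 2. A listing of 0 allows up to 3 reads, for counting error only. Tfe3 was thus the highest of the 4 genes of this factor family.

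**Figure D3:**
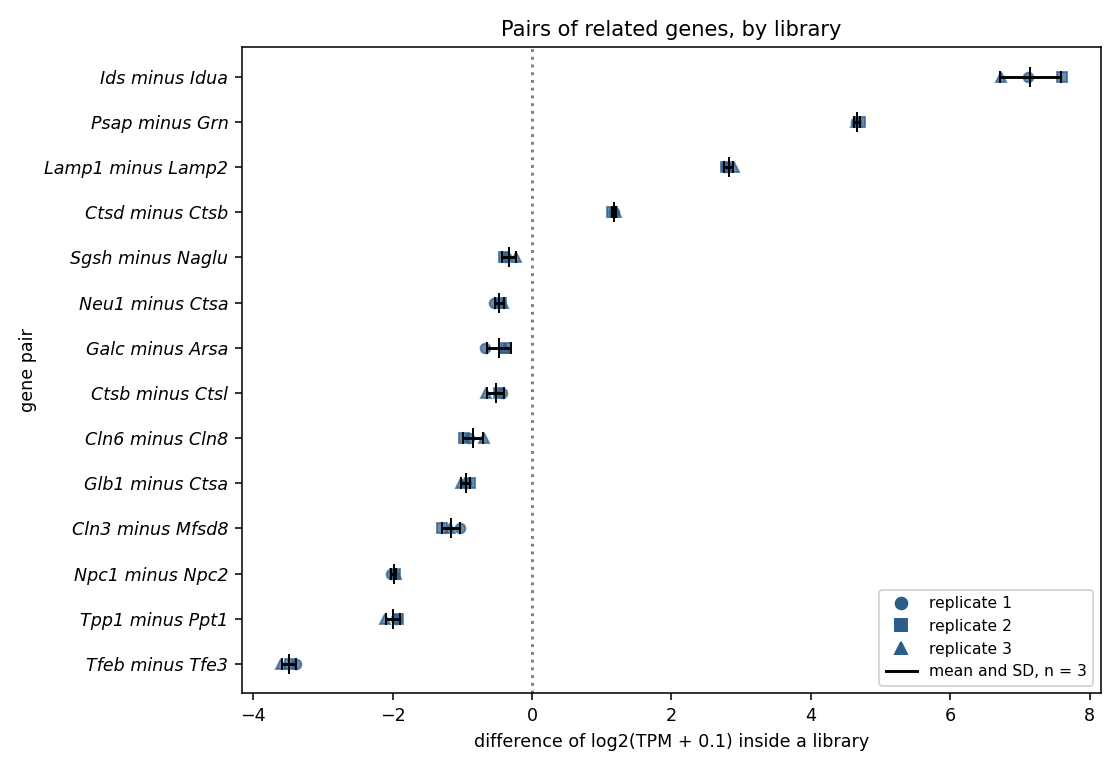
Difference of log2(TPM + 0.1) between the first and second gene of 14 pairs inside each library (symbols), with mean and SD over 3 libraries (cross and bar). All 14 pairs keep 1 sign in the 3 libraries, from 7.15 for Ids minus Idua to -3.48 for Tfeb minus Tfe3. Each has the smallest p the exact sign-flip permutation test can give here, 0.25. The share of other gene pairs that keep 1 sign was not counted.

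In all, 14 pairs of related genes were compared, and each kept 1 sign in the 3 libraries. The share of other gene pairs that keep 1 sign was not counted, so this count describes the chosen pairs only. No pair could pass 0.05, and the Benjamini-Hochberg adjusted p over the 14 pairs was 0.25 for each. The sizes rested on the transcript chosen. With the most abundant coding transcript, Galc minus Arsa was -1.18 and Cln3 minus Mfsd8 -0.39. With values summed over transcripts, Galc minus Arsa was -2.44, Tpp1 minus Ppt1 -3.40, Npc1 minus Npc2 -0.71 and Cln6 minus Cln8 -1.28. Under the same sums Ctsd minus Ctsb was 2.5001, Psap minus Grn 3.67 and Ids minus Idua 5.18. With a pseudocount of 1, Ids minus Idua was 6.01 and Tfeb minus Tfe3 was -2.45.

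Grouped by human disease, the neuronal ceroid lipofuscinosis genes (Ppt1, Tpp1, Cln3, Cln6, Cln8, Mfsd8, Ctsd, Ctsf and Grn) reached a mean of 1 TPM in 9 of 9 cases, against 61.8% of all coding genes, with a median of 10.6 ± 0.58 TPM. The counts of the other groups and lists are to be read beside the same 61.8%. The 6 sphingolipidosis genes were all expressed, with a median of 9.73 ± 0.71 TPM. Of 6 mucopolysaccharidosis genes 5 were expressed, and their median, 1.51 ± 0.03 TPM, was the lowest of the disease groups. The 3 glycoproteinosis genes (Man2b1, Neu1 and Ctsa) had a median of 8.79 ± 0.11 TPM. Npc1, Npc2 and Lipa, of Niemann-Pick type C disease and acid lipase deficiency, had a median of 4.62 ± 0.28 TPM. Glb1 counts in 2 of these groups, since its loss causes a gangliosidosis or a mucopolysaccharidosis.

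Other genes of the pathway were taken from lists written from textbook knowledge. Of 24 other lysosomal hydrolases and activators, 18 had a mean of at least 1 TPM, against 61.8% of all coding genes, and their median, 6.19 ± 0.23 TPM, was 0.75 ± 0.02 log2 units below that of the 35 genes. Legumain (Lgmn) led with 40.9 ± 2.005 TPM, followed by acid sphingomyelinase (Smpd1) with 25.7 ± 0.67 TPM. Ctsk, the cathepsin of osteoclasts, was lowest at 0.081 ± 0.016 TPM.

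All 16 other lysosomal membrane protein genes were expressed, with a median of 7.92 ± 0.25 TPM, 0.41 ± 0.10 log2 units below that of the 35 genes (0.12 above it with values summed over transcripts). Laptm4a had 84.2 ± 4.90 TPM, Tmem106b, a gene linked to frontotemporal dementia in people, 30.5 ± 2.91 TPM, and the polyamine exporter gene Atp13a2 28.1 ± 2.40 TPM. Cd68, a macrophage marker, was lowest at 1.19 ± 0.41 TPM. Of 13 genes for mannose 6-phosphate tagging and enzyme sorting, 12 were expressed, and their median, 16.8 ± 0.84 TPM, exceeded that of the 35 genes by 0.67 ± 0.09 log2 units. The retromer genes Vps35 and Vps29 had 102 ± 3.23 and 46.4 ± 0.93 TPM, and Sort1, sortilin, had 34.2 ± 3.66 TPM. Nagpa, which uncovers the mannose 6-phosphate tag, was lowest at 0.97 ± 0.03 TPM.

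Nutrient sensing at the lysosome, which controls TFEB through mTORC1, was covered by 17 genes including the other factors of the TFEB family. Of these, 15 were expressed, with a median of 13.3 ± 1.11 TPM, 0.34 ± 0.12 log2 units above the 35 genes. The Rag GTPase genes Rraga and Rragb had 56.6 ± 0.90 and 36.3 ± 2.42 TPM, and the scaffold gene Lamtor2 had 43.6 ± 4.34 TPM. Tfeb, the factor under this control, was lower than 15 of the 17 genes of the list.

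**Figure D4:**
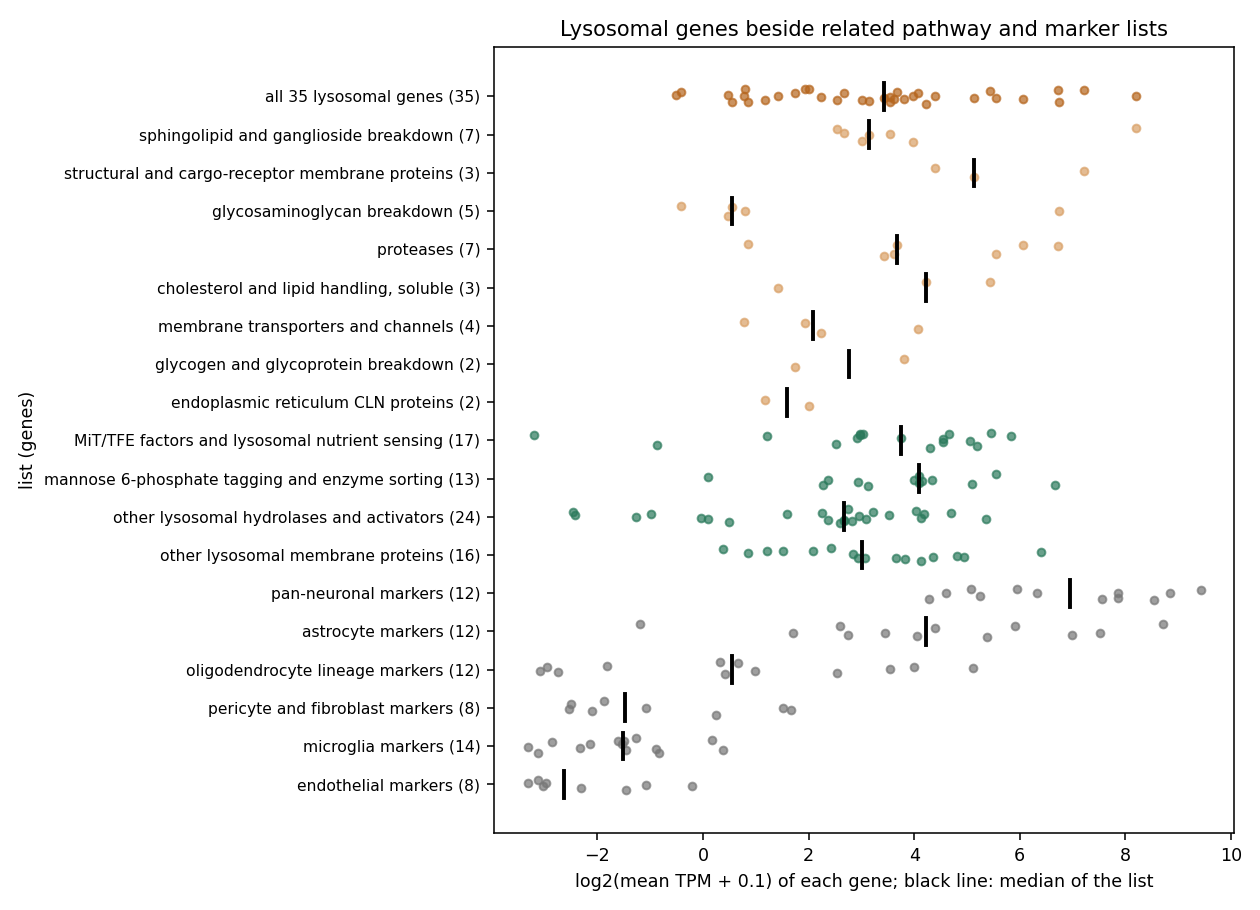
Each gene as a point at log2(mean TPM + 0.1), by list, with the number of genes in brackets and a black line at the list median: all 35 lysosomal genes and their roles (orange shades), other lysosomal pathway lists (green) and cell type markers (grey). The glycosaminoglycan group has a median of 1.38 TPM with Ids far to its right, and microglial and endothelial markers lie furthest left.

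The libraries carried the markers of their labelled cell type and also those of astrocytes and, at lower levels, of the oligodendrocyte lineage. All 12 pan-neuronal markers were expressed, and they summed to 2243 to 2557 TPM. Of 12 astrocyte markers 11 were expressed, with a sum of 870 to 940 TPM, and of 12 oligodendrocyte lineage markers 8. Of 14 microglial markers 2 (Cd68 and Aif1) reached 1 TPM, the sum was 4.02 to 5.31 TPM, Cx3cr1, P2ry12 and Csf1r averaged 0.038, 0.126 and 0.099 TPM, and Tmem119 was listed at 0 in all 3 libraries. None of 8 endothelial markers was expressed (1.24 to 2.20 TPM in sum, Cldn5 listed at 0), and 3 of 8 pericyte and fibroblast markers were (7.64 to 7.81 TPM). The lysosomal levels are therefore those of samples that held RNA of neurons, astrocytes and the oligodendrocyte lineage, and the share of each cell type in any lysosomal gene was not tested. In bulk RNA, fewer cells of a type and less RNA per cell cannot be told apart. Depth was 32469753, 28667376 and 28210553 reads on coding transcripts whose reads came out whole.

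Levels of most lysosomal genes varied little between these 3 libraries. The coefficient of variation over the 3 libraries had a median of 6.38% for the 35 genes, between 1.28% for Neu1 and 18.5% for Idua, and a median of 7.88% for expressed coding genes. It was under 10% in 30 of 35 genes, against 66.02% of expressed coding genes. The 5 genes above that were Idua at 18.5%, Ctsz at 16.9%, Ids at 15.2%, Cln3 at 12.6% and Arsa at 10.2%. These comparisons were not matched for level or read number. The lysosomal median was 10.7 TPM, and that of expressed coding genes was 8.30 TPM.

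For 34 genes with whole reads the spread could be set beside the counting error alone. It was above the counting error in 29 genes and below it in 5, namely Neu1, Naglu, Gusb, Sgsh and Tfeb. The same count was not made over all coding genes, so no share stands beside it. For Ids the counting error was 0.641%, beside a spread of 15.2%. For Idua and Ctsz it was 9.99% and 9.44%, beside spreads of 18.5% and 16.9%. The source of these spreads was not tested. Tfeb, with 61 to 74 reads, had a counting error of 12.3%.

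**Figure D5:**
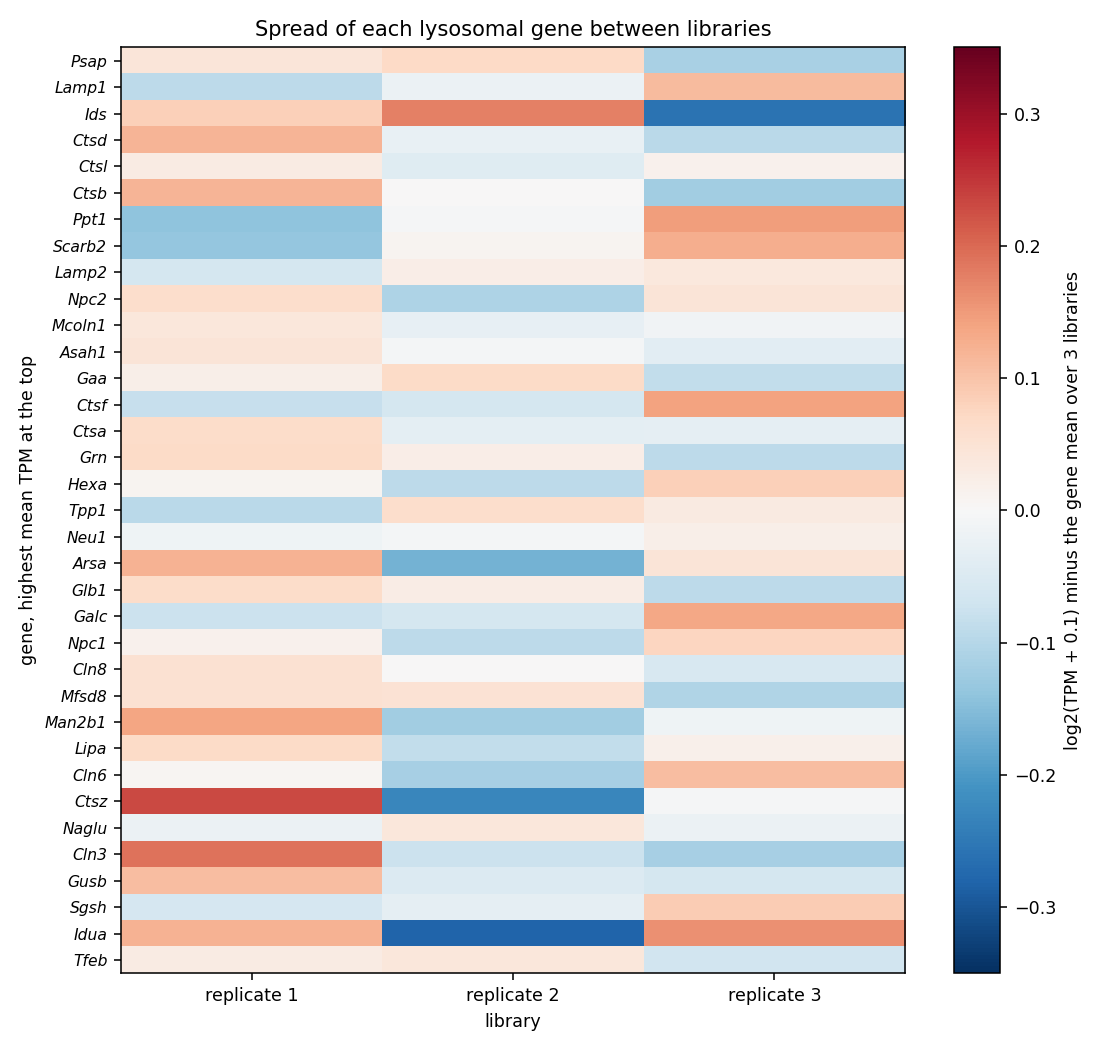
Departure of each lysosomal gene from its own mean over 3 libraries, in log2(TPM + 0.1) units, by library (columns) and gene (rows, highest mean at the top), red above and blue below the mean. Ids is lowest in replicate 3, Idua and Ctsz are lowest in replicate 2, and most other genes depart little.

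The libraries did not move all lysosomal genes one way. Replicate 1 held the highest value of 17 of the 35 genes, against 28.2% of expressed coding genes. Replicate 2 held that of 6 genes, against 40.4%, and replicate 3 that of 12, against 31.4%. The lowest value lay in replicate 1 for 10 genes, in replicate 2 for 12 and in replicate 3 for 13, against 33.6%, 25.4% and 41.0% of expressed coding genes.

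Among the 4 genes at or above 100 TPM, Ids departed most in replicate 3, by -0.39 log2 units from the mean of the other libraries. By the same measure Psap lay at -0.17, Ctsd at -0.14 and Lamp1 at 0.17. Genes below 100 TPM lay on both sides, such as Ppt1 at 0.22, Scarb2 at 0.19 and Ctsb at -0.18. The pan-neuronal marker sum was also lowest in replicate 3, at 2243 TPM against 2487 and 2557 TPM in replicates 1 and 2, and no pan-neuronal marker was highest there. Astrocyte markers summed to 940, 880 and 870 TPM in replicates 1, 2 and 3, a sum led by Fabp7 with 502.5, 415 and 340 TPM, while 7 of the 12 were highest in replicate 3. Among those 7, Slc1a3 had 165, 185 and 203 TPM. Oligodendrocyte lineage markers summed to 73.9, 56.3 and 90.8 TPM, and 7 of the 12 were highest in replicate 3. The part of these cell types in the departures was not tested.

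Genomic position and size were properties that the choice of genes did not use. The 35 genes lie on 17 chromosomes. Their median span between outermost annotated ends was 17.6 kb, against 21.96 kb for all coding genes. None spans more than 100 kb, against 13.5% of coding genes, and 27 of 35 span less than 30 kb, against 59.5%. The longest were Glb1 at 73.8 kb and Scarb2 at 65.5 kb, and the shortest Neu1 at 4.70 kb and Arsa at 4.95 kb.

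The promoter palindrome and the level can be set side by side as a description. The 12 genes with CACGTG in the printed windows had a median of mean levels of 12.4 TPM and ran from Sgsh at 1.28 to Lamp1 at 149 TPM. The 19 genes with a window and no copy had a median of 8.79 TPM and ran from Tfeb at 0.603 to Psap at 295 TPM. The ranges overlapped almost entirely. Among the 4 genes at or above 100 TPM, Lamp1 with its 4 copies and Ctsd with 2 had the palindrome, and Psap and Ids did not have it in these windows.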

How the data were processed

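RNA-seq of 3 control libraries was used. Build mm10 and the tools STAR 2.5.3a, Subread 1.4.6, featureCounts and FastQC 0.11.2 are named in the submitters' processing notes. The deposited values are TPM per transcript as the authors made them, for 84660 transcripts of GENCODE M4 per the file's name, and each column sums to 1000000. Transcripts were matched without version to GENCODE M21 (98.1% matched, 1643 did not).

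The gene value was the coding transcript with the highest mean TPM times exonic length, as reads of overlapping transcripts were not separate. TPM times length to the deposited transcript end was a whole multiple of 1 constant per library for 98.7% of values (within 0.01 of a read). Of transcripts lying inside another gene's exons, 44 on the opposite strand had a median 0.342% of that gene's TPM and 71 on the same strand 48.6%. In all 35 genes at least 90% of transcript 50-mers, including those across exon joins, were found nowhere outside the gene's own span on 22 chromosomes. Gene models overlapping inside that span, such as Gm49369 with Ctsd, are not covered by this search.

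Differences are of log2(TPM + 0.1) inside a library, as mean and SD over 3 libraries, with an exact sign-flip permutation test, and they understate differences of low genes. Named are the 35 genes, the 3 highest and the lowest of each pathway list and the pair partners. Some genes this rule names are not reported here. Marker lists, under the same rule, are given mostly as counts and sums. The genes, lists, pairs and tests were chosen with earlier results of these data known. Promoters come from RefSeq (GRCm38.p6). Alternatives were sums over transcripts, the most abundant transcript, other pseudocounts and minimums, rescaling, leaving out each replicate and, chosen after seeing the data, lengths to the deposited ends. Statistics were tested on simulated data. Python 3.11.15, numpy 2.4.6, pandas 2.3.3, numba 0.67.0 and matplotlib 3.10.9 were used.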

Additional observations from a re-analysis of the deposited data

How the results depend on the processing

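Lysosomal genes averaging 1 TPM or more numbered 33 with the most abundant coding transcript and without each replicate in turn. They also numbered 33 with lengths to the deposited ends. With sums over transcripts or rescaling to nuclear coding genes they numbered 35, and at a minimum of 5 TPM 22. The share of all coding genes was not counted under these settings, and 61.8% holds only for the values as reported. The lysosomal minus coding median, 1.82 as reported, was 1.54 with sums, 1.56 with a pseudocount of 1 and 0.44 among genes of at least 1 TPM, and ran from 1.81 to 1.86 without each replicate. Sums over transcripts count shared reads repeatedly. Under them the sign turned for Sgsh minus Naglu (0.58), Cln3 minus Mfsd8 (3.44) and for the medians, relative to the 35 genes, of transporters and channels (0.085), sphingolipid breakdown (0.23), soluble lipid proteins (-0.13) and other lysosomal membrane proteins (0.12). Rank order depended on the transcript: sums kept 2 of 35 ranks and the most abundant transcript 15, with Psap highest throughout and Ctsz, Idua or Tfeb lowest. Genes highest in replicate 3 numbered 12 to 15. No paired analysis between conditions was possible because there is 1 group. Idua, Tfeb and Ctsz rest on few reads, which limits their precision.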
